A study of Arabidopsis thaliana with 28 samples.

Results

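HELITRON and HELITRONY are families of Helitrons, the rolling-circle DNA transposons of plants and other eukaryotes. The 7 families described here (HELITRON1, HELITRON5, HELITRONY1A, HELITRONY1B, HELITRONY1C, HELITRONY2 and HELITRONY3) are all entries of the authors' deposited table whose name begins with HELITRON, of 83 named transposable element families in that table. RNA was sequenced from the aerial parts of Arabidopsis thaliana seedlings 6 days old, with 3 libraries of caa39, a mutant of topoisomerase VI, and 3 of the wild type Col-0 (WT below). Both genotypes had grown on the same half-strength medium in long days. The mutant is represented by a single line. Per the series design these are biological replicates. Topoisomerase VI passes one DNA duplex through a break in another, and in Arabidopsis it is known for the rounds of genome doubling that enlarge leaf cells. The table holds transposable elements only, so the tissue could not be checked against marker genes. Chromatin and methylation libraries of the series were not analysed here.

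An autonomous Helitron codes for one large protein that joins a replication initiator domain, which nicks and rejoins a DNA strand, to a helicase domain, which unwinds it. Copies without an intact protein can move only with the enzyme of another copy. Helitrons insert between an A and a T without duplicating the target site, and many carry pieces of host genes. In Arabidopsis most copies are kept silent by DNA methylation and by methylation of histone H3 at lysine 9. All 7 families stand in the class RC (rolling circle) and the superfamily Helitron of the table, which also holds 7 families named ATREP. Each family sums reads over copies dispersed in the genome, so its value has no single position, and reads of similar copies may be shared between families. Values are reads per family and not per length, so levels of different families are not ranked. No sequence or copy number entered this description.

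The table gives the mean of each genotype, and the whole reads of each library were solved from these means. Libraries a, b and c, in the order of their size factors, had 22681, 20205 and 14609 reads in the 83 named families in caa39, against 18997, 18444 and 16301 in WT. Normalised reads below are these reads divided by the size factor of the library, so that 1 read counted for 0.732 to 1.09 in caa39 and for 1.06 to 1.22 in WT. The letters are not replicate numbers. These totals cover listed families and are not the depth of the libraries.

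HELITRON1, HELITRON5 and the 3 HELITRONY1 families were lower in caa39, while HELITRONY2 and HELITRONY3 were higher. All 7 pass the authors' threshold of 0.05 on the adjusted p in their deposited table, as do 100% of the families listed, because the table holds no others. At least 35.7% of all features in the authors' tests passed that threshold, as implied by the ranks of the p-values. The 5 families that were lower compare with 51.8% lower among the families listed, and the 2 that were higher with 48.2%. The median log2 fold change (caa39 over WT) in the authors' deposited table was −0.81 over the 7 families, with a range of −1.67 to 2.45, against −0.35 over all 83. The libraries of the 2 genotypes did not overlap in any of the 7 families, which also held for 98.8% of the families listed. RNA came from whole shoots, in which fewer expressing cells and less RNA per cell cannot be told apart.

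HELITRON1 had the most reads of the 7 and was lower in caa39. Its caa39 libraries a, b and c had 956, 822 and 585 reads, or 700.02, 679.7 and 640.1 normalised reads. The WT libraries had 1282, 1178 and 1129 reads, or 1359, 1357 and 1372 normalised reads. The WT libraries were nearly equal and every caa39 library lay far below them. HELITRON1 thus averaged 673 ± 30.5 normalised reads in caa39 and 1363 ± 8.39 in WT (SD, n = 3 each). The SD was 4.53% of the mean in caa39 and 0.615% in WT, where counting error alone would give 3.62% and 2.90%. A fold of 0.494 (adjusted p = 1.97e-24) is listed in the authors' deposited table. In limma, on log2 of normalised reads plus 0.5 and with adjustment over the 83 families, the log2 fold change was −1.02 with a standard error of 0.080 (adjusted p = 0.000175).

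HELITRON5 was lower by a smaller factor. Its caa39 libraries a, b and c had 568, 463 and 299 reads, or 416, 383 and 327 normalised reads. The WT libraries had 494, 444 and 431 reads, or 524, 511 and 524 normalised reads. The lowest WT library lay above the highest caa39 library, and the caa39 libraries were spread more widely. HELITRON5 averaged 375 ± 44.9 normalised reads in caa39 and 519.6 ± 7.10 in WT (SD, n = 3 each). The SD was 11.95% of the mean in caa39, against 4.85% from counting alone, and 1.37% in WT, against 4.69%. A fold of 0.722 (adjusted p = 0.00104) is listed in the authors' deposited table. The limma log2 fold change was −0.48 with a standard error of 0.11 (adjusted p = 0.00836). This call rested on the scaling of the libraries. On a scale set by the listed reads the log2 fold change was −0.17 (limma adjusted p = 0.201). With size factors from the median of ratios over the listed families it was −0.061 (limma adjusted p = 0.587). Both scales draw only on entries listed as changed and are no neutral reference.

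Relative to HELITRON5 in the same library, HELITRON1 was also lower in caa39, a comparison that no scaling can move. The ratio of HELITRON1 to HELITRON5 reads was 1.68, 1.78 and 1.96 in caa39 libraries a, b and c, against 2.595, 2.65 and 2.62 in the WT libraries. It averaged 1.81 ± 0.139 in caa39 and 2.62 ± 0.0291 in WT (SD, n = 3 each; two-sided exact permutation test, p = 0.1, which is the lowest value 3 against 3 can reach). No caa39 library reached the WT range. This pair was chosen after its values were seen.

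**Figure D1:**
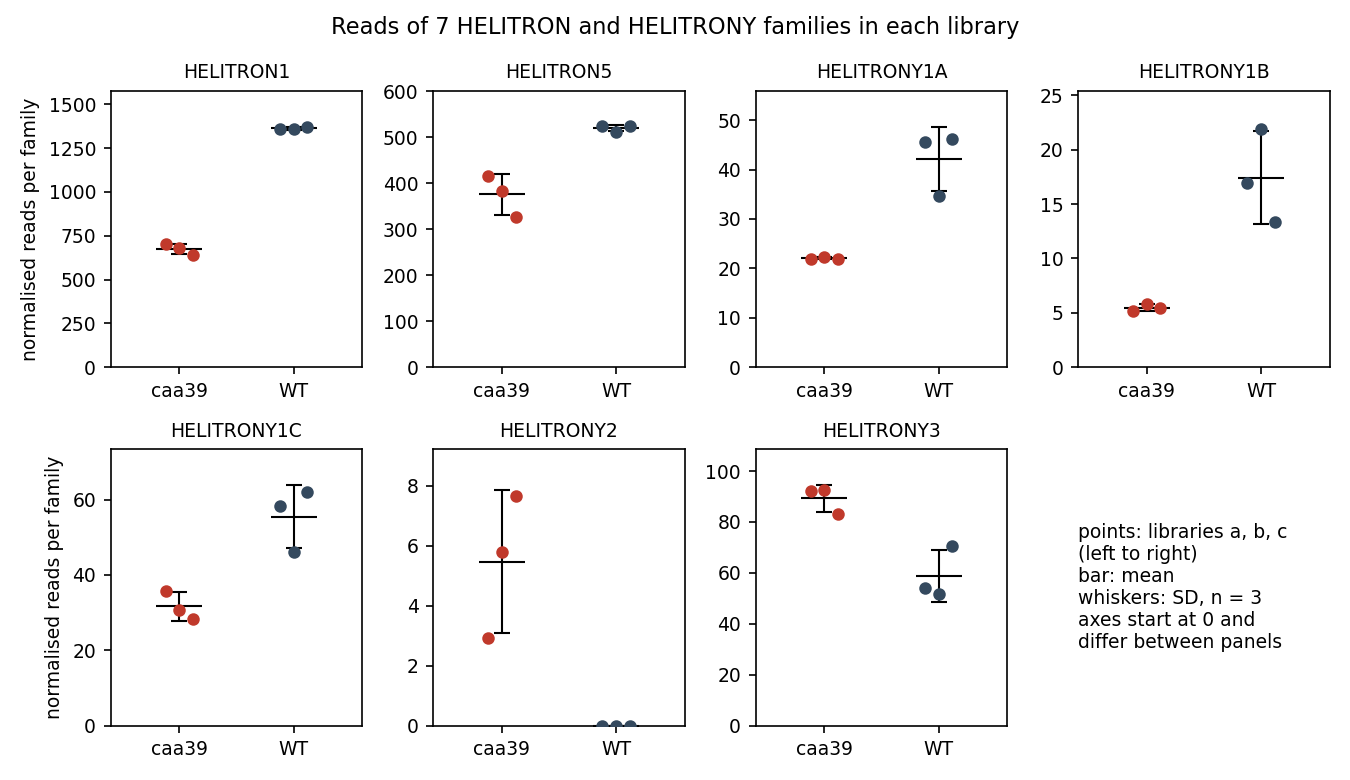
Normalised reads per family (vertical axes, from 0 and different in each panel) in the 3 caa39 libraries (red, left) and the 3 WT libraries (dark, right), with the mean as a bar and the SD as whiskers. HELITRON1, HELITRON5 and the 3 HELITRONY1 families have every caa39 point below every WT point, while HELITRONY2 and HELITRONY3 have every caa39 point above.

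The families HELITRONY1A, HELITRONY1B and HELITRONY1C, 3 variants that share a base name, were all lower in caa39. Their summed value was 63.0, 58.7 and 55.8 normalised reads in caa39 libraries a, b and c, against 120.8, 102.5 and 121.6 in the WT libraries. The sum averaged 59.2 ± 3.61 in caa39 and 115 ± 10.8 in WT (SD, n = 3 each), a ratio of 0.515. The caa39 libraries lay well below the lowest WT library.

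HELITRONY1A had 30, 27 and 20 reads in caa39, or 21.97, 22.3 and 21.9 normalised reads, against 43, 30 and 38 reads, or 45.6, 34.6 and 46.2 normalised reads, in WT. The caa39 libraries were nearly equal, with an SD of 1.07% of the mean where counting alone would give 20.0%. HELITRONY1A averaged 22.1 ± 0.236 in caa39 and 42.1 ± 6.55 in WT (SD, n = 3 each). The authors' deposited table lists a fold of 0.524 (adjusted p = 0.0370). The limma log2 fold change was −0.91 with a standard error of 0.14 (adjusted p = 0.00155). This standard error draws on the narrow caa39 spread and may understate the counting error.

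HELITRONY1C had 49, 37 and 26 reads in caa39, or 35.9, 30.6 and 28.4 normalised reads, against 55, 40 and 51 reads, or 58.3, 46.1 and 62.0 normalised reads, in WT. WT library b was the lowest of its group in both HELITRONY1A and HELITRONY1C, and still above every caa39 library. HELITRONY1C averaged 31.6 ± 3.82 in caa39 and 55.5 ± 8.33 in WT (SD, n = 3 each). The authors' deposited table lists a fold of 0.571 (adjusted p = 0.0399, the largest of the 7 families). The limma log2 fold change was −0.80 with a standard error of 0.16 (adjusted p = 0.00386).

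HELITRONY1B had the fewest reads of the 3 and the lowest fold. It had 7, 7 and 5 reads in caa39, or 5.13, 5.79 and 5.47 normalised reads, against 16, 19 and 11 reads, or 17.0, 21.9 and 13.4 normalised reads, in WT. Its lowest WT library held more than its highest caa39 library on either scale. HELITRONY1B averaged 5.46 ± 0.331 in caa39 and 17.4 ± 4.28 in WT (SD, n = 3 each). The authors' deposited table lists a fold of 0.314 (adjusted p = 0.0299). On the pooled 19 caa39 and 46 WT reads the ratio was 0.312, with an exact 95% interval of 0.173 to 0.543 that covers counting error only. The corresponding intervals were 0.386 to 0.707 for HELITRONY1A and 0.449 to 0.746 for HELITRONY1C, so the 3 intervals overlap. In limma HELITRONY1B had a log2 fold change of −1.56 with a standard error of 0.19 (adjusted p = 0.000798). Its SD in caa39 was 6.07% of the mean, where counting alone would give 40.2%. The limma standard error draws on this narrow spread and may understate the counting error.

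HELITRONY3 went the other way. It had 126, 112 and 76 reads in caa39, or 92.3, 92.6 and 83.2 normalised reads, against 51, 45 and 58 reads, or 54.1, 51.8 and 70.5 normalised reads, in WT. The highest WT library, c, lay closest to the caa39 range without reaching it. HELITRONY3 averaged 89.3 ± 5.36 in caa39 and 58.8 ± 10.2 in WT (SD, n = 3 each). The authors' deposited table lists a fold of 1.52 (adjusted p = 0.0351). The ratio of pooled reads was 1.54, with an exact 95% counting interval of 1.27 to 1.88. In limma the log2 fold change was 0.61 with a standard error of 0.14 (adjusted p = 0.00825), and 0.92 on the scale of listed reads (limma adjusted p = 0.00242).

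HELITRONY2 had reads in caa39 libraries and none in WT libraries. It had 4, 7 and 7 reads in caa39 libraries a, b and c, or 2.93, 5.79 and 7.66 normalised reads, and 0 reads in each WT library. Each caa39 library thus held a few reads. HELITRONY2 averaged 5.46 ± 2.38 in caa39 (SD, n = 3), and the authors' deposited table lists it at an adjusted p of 0.0260. That table has a WT mean of 1 where the overall mean leaves 0 for WT, so its fold of 5.46 is measured against a stand-in. The 18 pooled caa39 reads over the summed size factors of their libraries gave 5.16 normalised reads. A floor of 3 reads over the WT group, divided in the same way, gave 1.14. Against that floor HELITRONY2 was 4.53-fold higher in caa39. This value leaves out the counting error of the 18 caa39 reads and is no strict lower limit. Without WT library a the floor rests on fewer libraries and the value was 2.91. The limma adjusted p of 0.000308 rests on WT values that are the pseudocount alone and have no spread. The SD in caa39 was 43.6% of the mean, where counting alone would give 40.3%.

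Within the HELITRONY families the shift of HELITRONY3 against the HELITRONY1 families could be read from single libraries. Such a ratio does not give the direction of either side. HELITRONY3 had 1.47, 1.58 and 1.49 reads for each read of HELITRONY1A, HELITRONY1B and HELITRONY1C together in caa39 libraries a, b and c, against 0.447, 0.506 and 0.580 in the WT libraries. In each caa39 library HELITRONY3 had more reads than the 3 families together, and in each WT library it had fewer. The ratio averaged 1.51 ± 0.0590 in caa39 and 0.511 ± 0.0665 in WT (SD, n = 3 each; two-sided exact permutation test, p = 0.1, again the lowest possible). This ratio was also chosen after its values were seen.

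**Figure D2:**
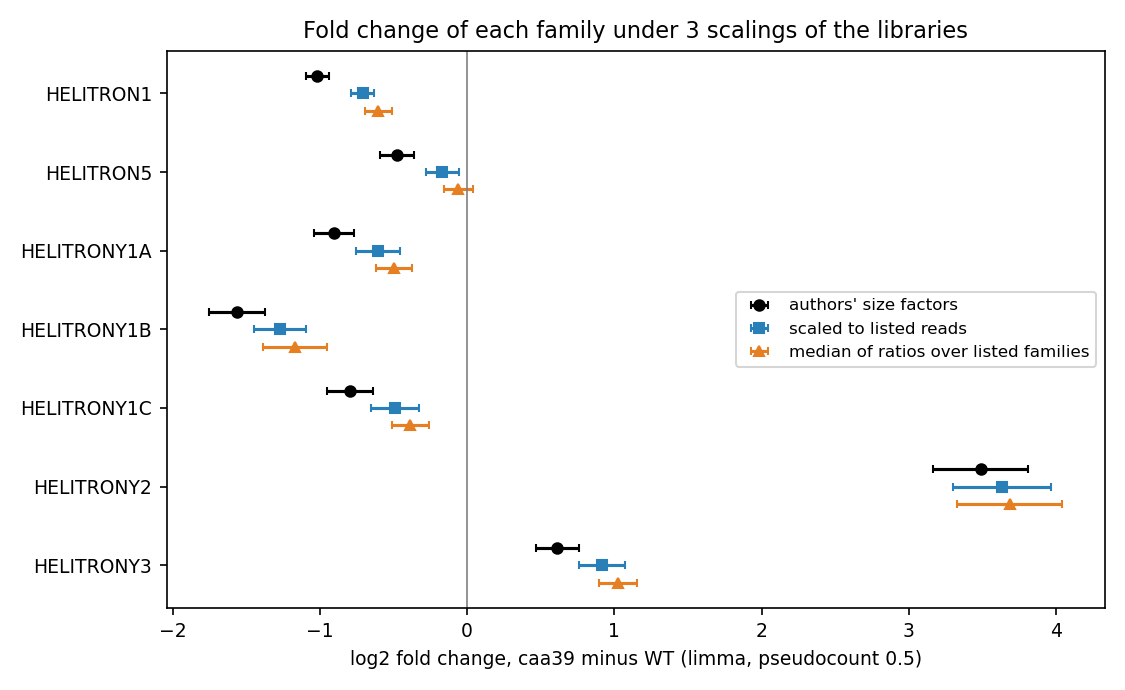
Limma log2 fold change of caa39 minus WT (horizontal axis, log2 of normalised reads plus 0.5) with its standard error, for each of the 7 families under 3 scalings of the libraries. HELITRON5 moves from −0.48 with the authors' size factors to −0.17 and −0.061, while the other 6 families stay on their side of 0.

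The scaling of the libraries bears on every fold above. Scaling to the listed reads, those of unassigned elements included, raised the limma log2 fold changes of the 83 families by a median of 0.31. Size factors from the median of ratios raised them by a median of 0.41. The first scaling makes the listed reads of every library equal by construction. The second scaling places the listed families near 0 by construction. Both draw only on entries listed as changed. The median limma log2 fold change of the families was −0.35 with the authors' size factors, against −0.042 and 0.065 after these scalings. HELITRON1 stood at −0.71 (limma adjusted p = 0.000545) and −0.60 (limma adjusted p = 0.00134) on these scales. HELITRONY1A stood at −0.60 and −0.50, HELITRONY1B at −1.27 and −1.17, and HELITRONY1C at −0.49 and −0.38, all past the limma threshold, while HELITRONY3 stood at 0.92 and 1.02. Of these, HELITRONY1C came closest to the threshold, with a limma adjusted p of 0.0344 and 0.0332. With the authors' size factors limma passed all 7 families, beside 97.6% of all listed families. On the scale of listed reads it passed 6 of the 7 beside 83.1% of all, and with the median of ratios 6 of the 7 beside 75.9%.

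Taken as one group, the 7 families held less of the RNA from listed elements in caa39. Their summed value was 1274, 1219.7 and 1114 normalised reads in caa39 libraries a, b and c, against 2057, 2023 and 2088 in the WT libraries. The sum averaged 1203 ± 81.5 in caa39 and 2056 ± 32.8 in WT (SD, n = 3 each), a ratio of 0.585. As a share of the normalised reads in named families, which no scaling of libraries can change, it was 7.31% ± 0.352 in caa39 and 10.1% ± 0.521 in WT (SD, n = 3 each). HELITRON1 carried most of the fall in the sum: without it the sum averaged 529 ± 51.0 in caa39 and 693 ± 25.4 in WT (SD, n = 3 each), a ratio of 0.763. Unlike the share, these sums depend on the scaling of the libraries. Without HELITRON1, the share of the other families together in the reads of named families overlapped between the libraries of the genotypes. That share was not tested. With the authors' size factors the mean of HELITRON1 fell by 689 normalised reads and that of HELITRON5 fell by 144.

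The make-up of the group shifted accordingly. HELITRON1 held 54.9%, 55.7% and 57.5% of the group's reads in caa39 libraries a, b and c, against 66.0%, 67.1% and 65.7% in the WT libraries. HELITRON5 held 31.1% ± 1.65 in caa39 and 25.3% ± 0.182 in WT, and HELITRONY3 held 7.43% ± 0.178 in caa39 and 2.86% ± 0.452 in WT (SD, n = 3 each). HELITRONY1C differed little in its share, with 2.63% ± 0.166 in caa39 and 2.69% ± 0.366 in WT (SD, n = 3 each). A share rises where the rest of the group falls, so the larger share of HELITRON5 is no rise in its reads.

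The listed families most like these are the 7 ATREP Helitrons. Of these, 6 were lower in caa39 and 1 was higher in the authors' deposited table, with a median log2 fold change of −0.88 and a range of −4.23 to 1.80. ATREP10D, with the most reads, averaged 280 ± 31.9 normalised reads in caa39 and 400.2 ± 57.3 in WT (SD, n = 3 each). ATREP15 rose 3.47-fold and ATREP6 stood at 0.0535 of WT in the authors' deposited table, a wider range than that of HELITRON and HELITRONY. Both name groups thus held families of either direction.

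Within a library the 7 HELITRON and HELITRONY families had 1.80, 1.61 and 1.69 reads for each ATREP read in caa39 libraries a, b and c, against 2.11, 2.598 and 2.09 in the WT libraries. The ratio averaged 1.70 ± 0.0974 in caa39 and 2.27 ± 0.288 in WT (SD, n = 3 each; two-sided exact permutation test, p = 0.1, again the lowest possible). Without HELITRON1 the ratio averaged 0.747 ± 0.0555 in caa39 and 0.763 ± 0.0800 in WT (SD, n = 3 each), with overlapping libraries. The 3 ratios within libraries that were tested all had an adjusted p of 0.1 by the exact permutation test. Only the ratio to ATREP was planned. HELITRON1 over HELITRON5 and HELITRONY3 over the HELITRONY1 families were chosen after their values were seen, a choice the adjustment does not cover.

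**Figure D3:**
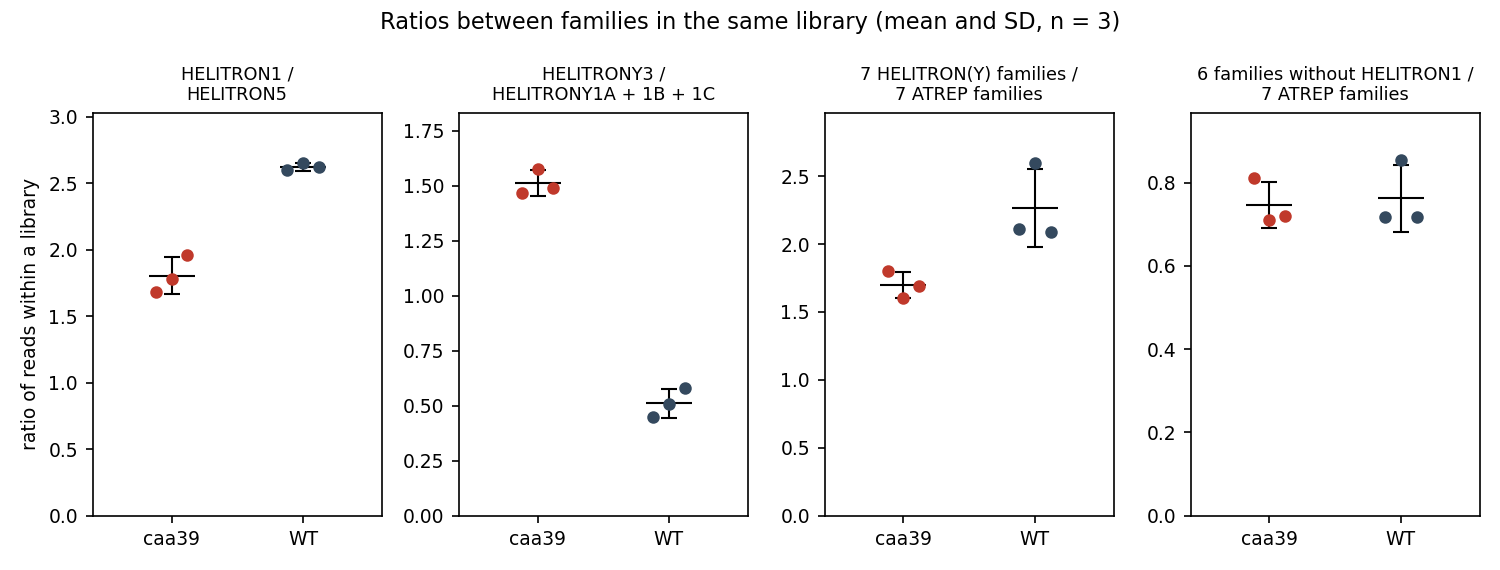
Ratio of reads between families within each library (vertical axes, from 0) in caa39 (red, left) and WT (dark, right), with the mean as a bar and the SD as whiskers. HELITRON1 over HELITRON5 averages 1.81 in caa39 and 2.62 in WT and HELITRONY3 over the HELITRONY1 families 1.51 and 0.511, while the ratio to ATREP without HELITRON1 overlaps between the genotypes.

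For each of the 7, the nearest profiles were sought among the listed families outside the 7, so members were not compared with each other. The distance was taken between log2 normalised reads plus 0.5 over the 6 libraries, each centred on its own mean. HELITRON1 lay nearest to TAG2, a hAT DNA transposon family, at a distance of 0.143, and next to ATCOPIA37, a Copia retrotransposon family, at 0.259. TAG2 averaged 99.4 normalised reads in caa39 and 203 in WT. TAG2 was also the nearest family outside the 7 to HELITRONY1A, at 0.376. HELITRON5 lay nearest to the Harbinger family ATIS112A at 0.187, and HELITRONY1C to the hAT family ATHATN1 at 0.234. HELITRONY3 lay nearest to VANDAL1, a MuDR family, at 0.315, with 94.9 normalised reads in caa39 and 58.6 in WT. HELITRONY1B lay farther from its nearest family, ATHAT10, at 0.538, and HELITRONY2 lay nearest to ATCOPIA21 at 0.440, another family with 0 reads in WT. None of the nearest 2 families of any member was an ATREP Helitron. Distances over so few libraries are dominated by the fold between the genotypes.

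**Figure D4:**
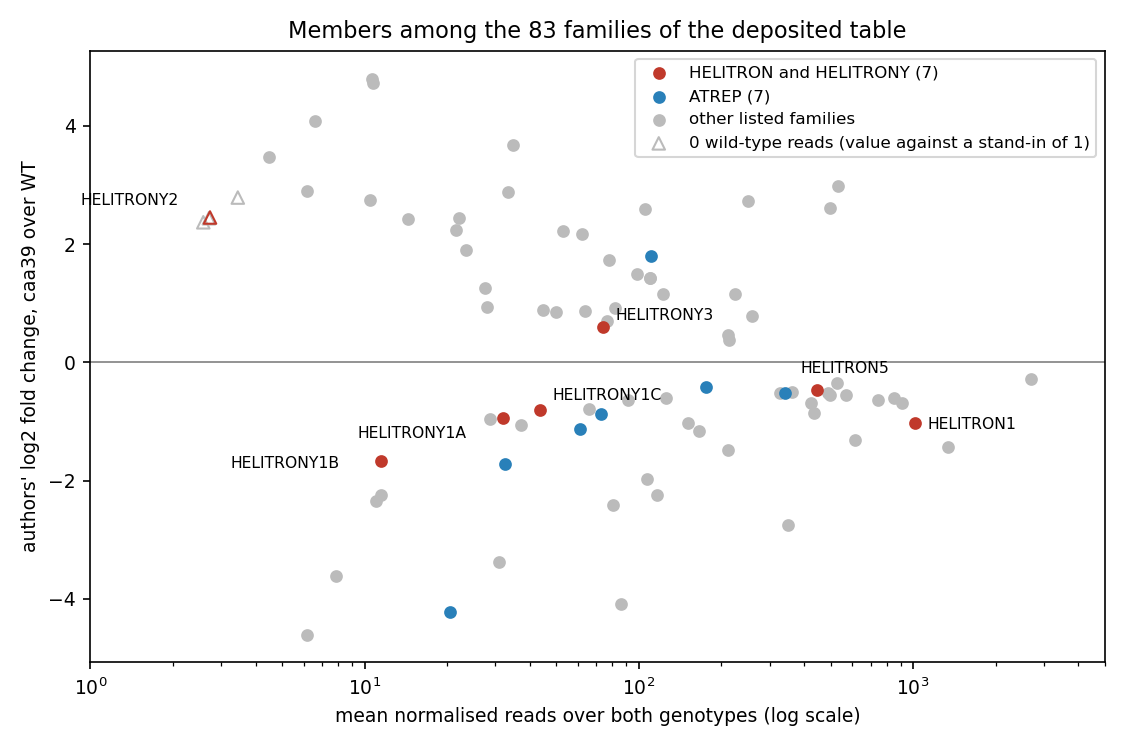
Authors' log2 fold change of caa39 over WT (vertical axis) against mean normalised reads over both genotypes (horizontal log axis) for the 83 listed families, with the 7 HELITRON and HELITRONY families in red and the 7 ATREP families in blue. Triangles mark families with 0 WT reads, HELITRONY2 among them, whose listed values stand against a WT mean of 1, and the other 6 members lie between −1.67 and 0.60.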

How the data were processed

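Per the file headers, the deposited signal is the authors' mean of normalised reads per family in each genotype, the deposited ratio is caa39 over WT, and the deposited log2 fold is the logarithm of that ratio. Each entry has a deposited p-value in raw and adjusted form, with 0.0499 as the largest adjusted one. The tools named in the submitters' processing notes are edgeR 1.12.0, Bowtie2 and FastQC 0.10.1, with the TAIR10 build and no roles. The counting of reads per family, the handling of reads that match more than one copy and the test behind the p-values are each not given in the sources used here. Ranks of the p-values implied 23918 tests, with whole ranks (relative tolerance 1e-08) in 74 of 84 entries. An entry of unassigned elements, 28.3% of listed reads, has a deposited p-value and was left out of the limma fit. Its reads were counted in the totals behind the scale of listed reads.

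The WT mean was checked as 2 times the overall mean minus the caa39 mean, and 4 entries listed as 1 came out at 0. A mean of 3 libraries is a sum of whole reads, each times a constant, and means carry 15 digits. All 84 caa39 means and all 78 distinct WT means had exactly 1 solution (relative tolerance 1e-14 plus 2e-13). For each genotype 1 set of constants was found that used every step. Size factors were 1.37, 1.21 and 0.914 in caa39 libraries a, b and c, and 0.943, 0.868 and 0.823 in WT. After small random shifts none of the means had a solution. Nothing links the solved libraries to replicate numbers. The solver and limma were tested on simulated data.

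The main calls are the authors'. The 83 named families were also fitted with limma 3.58.1 under R 4.3.3 (pseudocount 0.5, Benjamini-Hochberg adjustment). These had been chosen as changed on the same libraries, so the test is not independent of the authors' calls. Other values used Python 3.11.15, numpy 2.4.6, pandas 2.3.3 and scipy 1.17.1, and plots matplotlib 3.10.9. Intervals are exact binomial on pooled reads. Members, lists and tests were chosen with earlier results of these data known. All members are named, with the ATREP families of most reads, largest rise and largest fall. The 2 nearest families by profile of each member were sought outside the members, and not all are printed.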

Additional observations from a re-analysis of the deposited data

How the results depend on the processing

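Of the 7 families called by the authors, 2 (HELITRON1 and HELITRON5) were left at an adjusted p below 0.01. The same number was left with Bonferroni adjustment over the 83 listed families. That adjustment does not cover the 23918 tests, implied by the p-values, from which the listed families were drawn. At a 2-fold minimum 3 were left (HELITRON1, HELITRONY1B and HELITRONY2, the last against its stand-in). Stricter limits leave fewer by construction. In limma 88 of 90 alternative values of the 7 families kept their direction and their call, and 0 turned. The remaining 2 were HELITRON5 on the scale of listed reads (−0.17) and with the median of ratios (−0.061). All 42 values with a library left out kept their call, with a largest adjusted p of 0.0293 in limma. As libraries did not overlap, leaving one out could not turn a direction. The log2 ratio of the summed reads was −0.77, and −0.39 without HELITRON1, −0.47 on the scale of listed reads and −0.36 with the median of ratios. With a library left out it ran from −0.82 to −0.72. The log2 ratio to ATREP was −0.42, and −0.030 without HELITRON1, and −0.31 without WT library b. A minimum mean of 10 normalised reads removed HELITRONY2. Limma log2 fold changes of HELITRONY2 ran from 1.04 to 5.69 with pseudocounts of 5 and 0.1. No paired analysis was possible because replicate numbers cannot be assigned to libraries solved from group means. Few reads limit HELITRONY2 and HELITRONY1B.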
